A study of Homo sapiens with 2 samples.

Results

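The insulin and insulin-like growth factor (IGF) receptors, their docking substrates and the secreted IGF binding proteins were followed as a group of 10 genes. The genes were IGF1R, INSR, IGF2R, IRS1, IRS2, IGFBP2, IGFBP3, IGFBP4, IGFBP5 and IGFBP6. They were taken by symbol, and all 10 were found among the 26475 symbols listed in both tables. RNA sequencing had been done on 2 libraries of C4-2B ENZR cells, a subline of the prostate cancer line C4-2B that resists enzalutamide, a drug that blocks the androgen receptor. One library came from cells with an NRP2 knockdown (shNRP2), made with a lentiviral short hairpin RNA against the NRP2 coding region. The other came from cells with a non-targeting hairpin (shControl), whose genotype is labelled WT. Cells of both groups had been selected with an antibiotic and were grown in serum-containing medium with 20 µM enzalutamide. NRP2 encodes neuropilin-2, which serves semaphorin and VEGF signalling as a co-receptor, and the series is about its part in neuroendocrine prostate cancer. A single hairpin was used, and with 1 library a group there is no spread between replicates and no test between the conditions.

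Insulin, IGF1 and IGF2 act through the receptor tyrosine kinases encoded by INSR and IGF1R, which phosphorylate the docking proteins IRS1 and IRS2 and through them recruit PI 3-kinase and AKT. IGF2R, the cation-independent mannose 6-phosphate receptor, has no kinase; it takes up and clears IGF2 and sorts lysosomal enzymes. The IGF binding proteins hold IGFs outside the cell, where they can withhold them from IGF1R or carry them, and proteases release the bound IGF. In the prostate, IGF signalling is studied as a growth and survival input to epithelial and tumour cells.

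Both docking substrates and a pair of binding proteins differed between the libraries in opposite directions. IRS1 and IGFBP4 were higher in shNRP2 cells, and IRS2 and IGFBP5 were lower. IGFBP5 showed the largest difference of the 10 genes, at 1.75 CPM in shNRP2 cells and 5.79 CPM in shControl cells. The abundant genes IGF2R and IGFBP2 and the receptor gene INSR differed by less than 1.2-fold.

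The stretches before the start of 5 of these genes are shown. They belong to the 4 genes with the largest log2 changes, set beside IGF2R, which was nearly level. Each is the 250 bases before the annotated start, 5′ to 3′ on the gene's strand, from RefSeq. Capitals mark, on either strand, the TATA box letters TATAAA and the related TTTAAA, the E-box CACGTG, the CCAAT box and the GC box GGGCGG, all chosen with the sequences in view.
IRS1, GRCh38.p14 chr2:226799821-226800070, minus strand: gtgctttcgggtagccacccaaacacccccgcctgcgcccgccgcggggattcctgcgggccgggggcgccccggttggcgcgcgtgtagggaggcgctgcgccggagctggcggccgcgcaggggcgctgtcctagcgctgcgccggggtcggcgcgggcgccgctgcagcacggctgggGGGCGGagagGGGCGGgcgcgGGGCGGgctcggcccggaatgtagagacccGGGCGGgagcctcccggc
IRS2, GRCh38.p14 chr13:109786584-109786833, minus strand: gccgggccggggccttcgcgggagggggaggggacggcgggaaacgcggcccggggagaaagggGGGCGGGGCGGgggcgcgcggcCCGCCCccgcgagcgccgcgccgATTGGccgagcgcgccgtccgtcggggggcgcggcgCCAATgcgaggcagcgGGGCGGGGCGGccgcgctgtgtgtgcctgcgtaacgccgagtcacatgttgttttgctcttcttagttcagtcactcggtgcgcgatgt
IGFBP4, GRCh38.p14 chr17:40443200-40443449, plus strand: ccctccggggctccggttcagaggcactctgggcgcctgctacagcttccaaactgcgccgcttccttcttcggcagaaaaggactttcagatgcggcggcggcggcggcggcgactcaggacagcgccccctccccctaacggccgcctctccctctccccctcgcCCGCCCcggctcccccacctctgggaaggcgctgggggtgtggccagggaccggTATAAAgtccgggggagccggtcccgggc
IGFBP5, GRCh38.p14 chr2:216695550-216695799, minus strand: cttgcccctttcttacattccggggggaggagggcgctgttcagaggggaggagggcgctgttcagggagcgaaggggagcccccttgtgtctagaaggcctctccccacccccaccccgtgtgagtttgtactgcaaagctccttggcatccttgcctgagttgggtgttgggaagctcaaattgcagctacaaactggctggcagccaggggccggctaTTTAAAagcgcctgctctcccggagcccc
IGF2R, GRCh38.p14 chr6:159968832-159969081, plus strand: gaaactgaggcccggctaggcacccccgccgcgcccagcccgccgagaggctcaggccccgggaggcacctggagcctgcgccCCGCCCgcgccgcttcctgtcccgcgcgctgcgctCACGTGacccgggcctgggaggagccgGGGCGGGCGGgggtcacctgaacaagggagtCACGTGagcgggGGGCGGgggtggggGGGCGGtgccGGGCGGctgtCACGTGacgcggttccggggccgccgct

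The promoter windows of the receptor and substrate genes were richer in G and C than those of the binding protein genes. Windows were found for all 10 genes, 12 in all, since IGFBP2 has 3. The windows of the 5 receptor and substrate genes had a GC content of 76.4% to 81.2%, against 56.4% to 76.0% in the 7 windows of the binding protein genes and a median of 58.0% over all 35116 windows of that length. GGGCGG, or CCGCCC on the other strand, was in all 5 receptor and substrate windows, in 5 of the 7 binding protein windows and in 42.6% of all windows. TATAAA, or on the other strand TTTATA, and also TTTAAA, which reads the same on both strands, were in 0 of the 5 receptor and substrate windows. IGFBP4 has TATAAA beginning 29 bases before its start, a motif found in 10.7% of all windows. IGFBP5 has TTTAAA beginning 29 bases before its start, found in 11.3% of all windows. These 2 genes thus each have an AT-rich hexamer, of different letters, at the same distance. They differed in opposite directions, and any part of these letters in that was not tested. IRS2 has 2 matches to CCAAT, counting ATTGG on the other strand, a motif in 32.0% of windows, whereas IRS1 has 0. The IGF2R window holds CACGTG, its own reverse complement, 3 times; 6.34% of all windows hold it at least once. No match to one motif overlapped a match to another in the 5 windows printed. A match is letters only, and no binding was measured.

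Values are reads per gene after scaling by the authors, and are called CPM (TMM-scaled reads for each 1000000 of library size). The column sums were 1084413 in the shNRP2 library and 1024943 in the shControl library. Every value was a whole multiple of 1 smallest step, taken here as the value of 1 read. This gave 22992304 reads in the shNRP2 library and 21052178 in the shControl library. Raw and rounded counts cannot be told apart from the values, and the counting intervals treat them as reads. The 10 genes held 13085 reads in shNRP2 cells and 12382 in shControl cells. NRP2 itself had 7 reads in the shNRP2 library (0.330 CPM) and 20 in the shControl library (0.974 CPM), a ratio of 0.339 with a counting interval from 0.121 to 0.835. With a mean of 0.652 CPM, NRP2 lay under the minimum of 1 CPM set below for a comparison. Its paralog NRP1 was at 31.0 CPM in shNRP2 cells and 76.7 CPM in shControl cells, 2.48-fold lower (2.26 to 2.72) in shNRP2 cells. The prostate luminal identity was present in both libraries: all 10 luminal markers had a mean of at least 1 CPM, and they summed to 4070 CPM in shNRP2 cells and 3701 CPM in shControl cells. Of these 10, 3 were more than 1.5-fold higher in shNRP2 cells, where 5.78% of all compared genes were, and 0 were lower by that much. KLK3, which encodes prostate-specific antigen, was at 41.0 CPM in shNRP2 cells and 5.60 CPM in shControl cells, 7.33-fold higher (6.03 to 8.98). KLK2, its kallikrein relative, was at 92.5 CPM in shNRP2 cells and 16.4 CPM in shControl cells, and TMPRSS2, an androgen-regulated protease gene, at 181 CPM in shNRP2 cells and 117 CPM in shControl cells. Basal markers summed to 0.519 CPM in shNRP2 cells and 0.292 CPM in shControl cells, and neuroendocrine markers to 1.60 CPM in shNRP2 cells and 1.75 CPM in shControl cells. Of 6 fibroblast markers, a cell type that secretes IGF binding proteins, 3 had a mean of at least 1 CPM, DCN was at 0 in both libraries, and the sum was 36.8 CPM in shNRP2 cells and 46.7 CPM in shControl cells, of which COL1A1 gave 32.5 CPM in shNRP2 cells and 41.5 CPM in shControl cells. Endothelial markers summed to 3.87 CPM in shNRP2 cells and 3.75 CPM in shControl cells, of which VWF gave 3.40 and 3.75 CPM. Leukocyte markers summed to 10.8 CPM in shNRP2 cells and 7.30 CPM in shControl cells, of which CD68 gave 9.95 and 6.67 CPM. The other leukocyte markers held few reads in shNRP2 and shControl cells: PTPRC 1 and 5, CD3E 1 and 2, and LYZ 17 and 6. The part of these markers in the results below was not tested. In RNA from whole cultures, fewer cells of a type and less RNA per cell cannot be told apart.

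A gene was compared where its mean over both libraries was at least 1 CPM, which all 10 genes passed and 13316 genes did in all. Change was taken as log2((shNRP2 CPM + 1)/(shControl CPM + 1)), a scale that shrinks the differences of low genes, and genes past 1.5-fold on it were counted as higher or as lower. Plain ratios of CPM are given with exact conditional binomial 95% intervals from the recovered reads, which cover counting error only. Of the 10 genes, 2 were higher in shNRP2 cells, where 5.78% of all compared genes were, and 2 were lower, where 3.57% were. In either direction this is 4 of 10 genes beside 9.35% of all compared genes. Over all compared genes 769 were higher and 476 lower, while with both libraries set to equal totals 606 were higher and 671 lower, and the members' counts stayed at 2 and 2. All 4 lay among the 6 members with a mean of 1 to 10 CPM, a range where genes differed more often: 21.2% of 3242 compared genes there were past 1.5-fold, 13.5% higher and 7.65% lower. At 2-fold, 1 member was lower, where 0.526% of compared genes were, and 0 were higher, where 1.46% were. Counting intervals alone excluded a ratio of 1 for 7 members, beside 56.8% of all compared genes, and an exact conditional binomial test with Benjamini-Hochberg adjustment, which compares these 2 libraries and not the conditions, called 7 members beside 52.2% of all. With a pseudocount of 5 CPM in place of 1, the log2 change was 0.42 for IRS1, -0.41 for IRS2 and 0.40 for IGFBP4, so that these 3 no longer reached 1.5-fold and IGFBP5 alone did, at -0.68. The median log2 change was 0.04 over the 10 genes and 0.03 over all compared genes, with 5 members above 0 and 5 below.

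**Figure D1:**
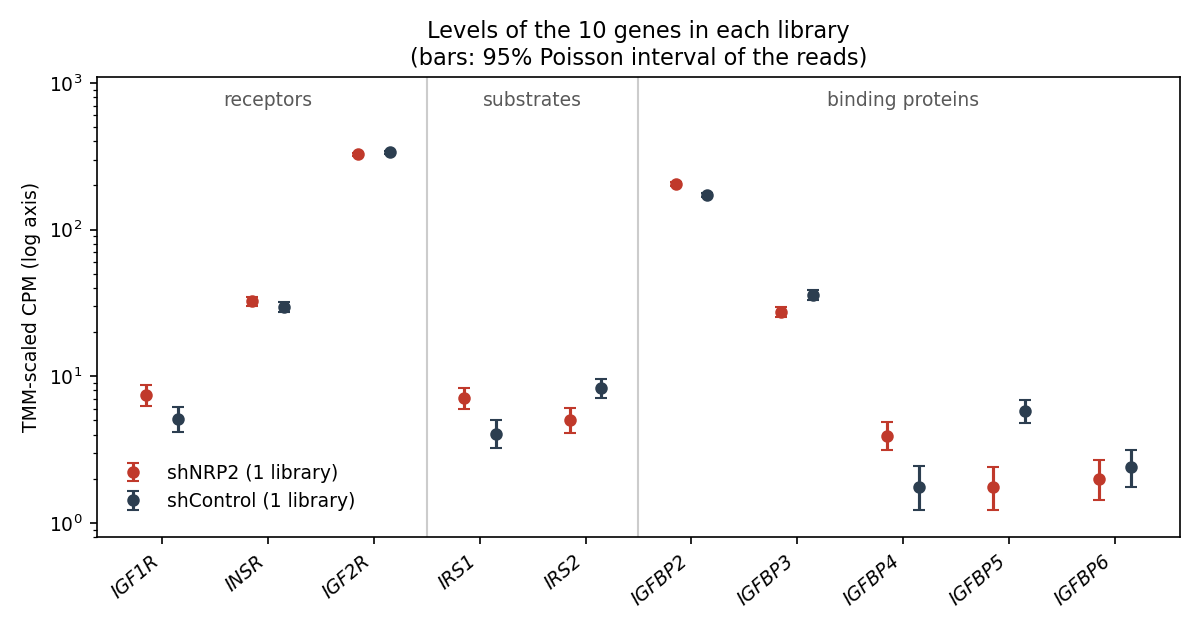
Level of each of the 10 genes in TMM-scaled CPM on a log axis, shNRP2 in red and shControl in dark blue, 1 library each, with 95% Poisson intervals of the recovered reads as bars. IRS1 and IGFBP4 lie higher in shNRP2 cells, IRS2 and IGFBP5 lie lower, and IGF2R is at 326 CPM in shNRP2 cells and 337 CPM in shControl cells.

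Among the receptors, IGF1R was the member with the larger ratio, while INSR and IGF2R stayed close to 1. IGF1R, the receptor for IGF1 and IGF2, was at 7.40 CPM in shNRP2 cells (157 reads) and 5.11 CPM in shControl cells (105 reads). Its log2 change of 0.46 did not reach 1.5-fold, and its ratio was 1.45 (1.12 to 1.87). INSR, the insulin receptor, was at 32.4 CPM in shNRP2 cells and 29.6 CPM in shControl cells, a ratio of 1.09 (0.977 to 1.22) whose interval includes no difference. IGF2R was the most heavily read member, with 6915 reads in the shNRP2 library and 6926 in the shControl library. Its CPM ratio was 0.967 (0.935 to 1.00), so that at the deposited scaling a difference was not resolved even at this depth. At that scaling the counting interval reaches 1.07-fold lower in shNRP2 cells. The log2 change of IGF2R was -0.13 with equal library totals and -0.11 under quantile normalization, both outside the counting interval. With similar lengths of coding sequence, 4101 bases in IGF1R and 4146 in INSR, the IGF1R level per kb of coding sequence was 0.231 times that of INSR in shNRP2 cells and 0.174 times in shControl cells. Per kb of transcript (11803 and 4721 bases in the GENCODE models used) the same ratio was 0.0915 in shNRP2 cells and 0.0690 in shControl cells. INSR thus had the higher level of the 2 kinase receptors in both libraries on both scales. The IGF1R to INSR ratio in shNRP2 cells was 1.33 times that in shControl cells (1.00 to 1.76), a value at the edge of counting error.

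The substrates IRS1 and IRS2 differed in opposite directions, and their order by level was different in the 2 libraries. IRS1, the docking protein tied to growth signalling by IGF1R, was at 7.07 CPM in shNRP2 cells (150 reads) and 4.04 CPM in shControl cells (83 reads). It was 1.75-fold higher (1.33 to 2.32), a log2 change of 0.68, and 536 of the compared genes, itself among them, were at least as high. IRS2, its paralog with a leading role in insulin action in liver and pancreatic islets of mice, was at 4.999 CPM in shNRP2 cells (106 reads) and 8.28 CPM in shControl cells (170 reads). It was 1.66-fold lower, with a ratio of 0.604 (0.469 to 0.774) and a log2 change of -0.63. The IRS2 to IRS1 ratio needs no scaling between libraries and was 0.707 in CPM in shNRP2 cells and 2.05 in shControl cells. The ratio in shNRP2 cells was 0.346 times that in shControl cells (0.236 to 0.503). Per kb of transcript IRS2 was at 0.843 times IRS1 in shNRP2 cells and at 2.44 times IRS1 in shControl cells, so IRS2 was the higher substrate in shControl cells and IRS1 in shNRP2 cells. In shNRP2 cells the intervals of their levels per kb overlapped. A gene antisense to an exon of IRS2 is annotated and not listed in the tables, and whether the counting used strand is not stated, so reads from that strand cannot be told apart from IRS2.

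**Figure D2:**
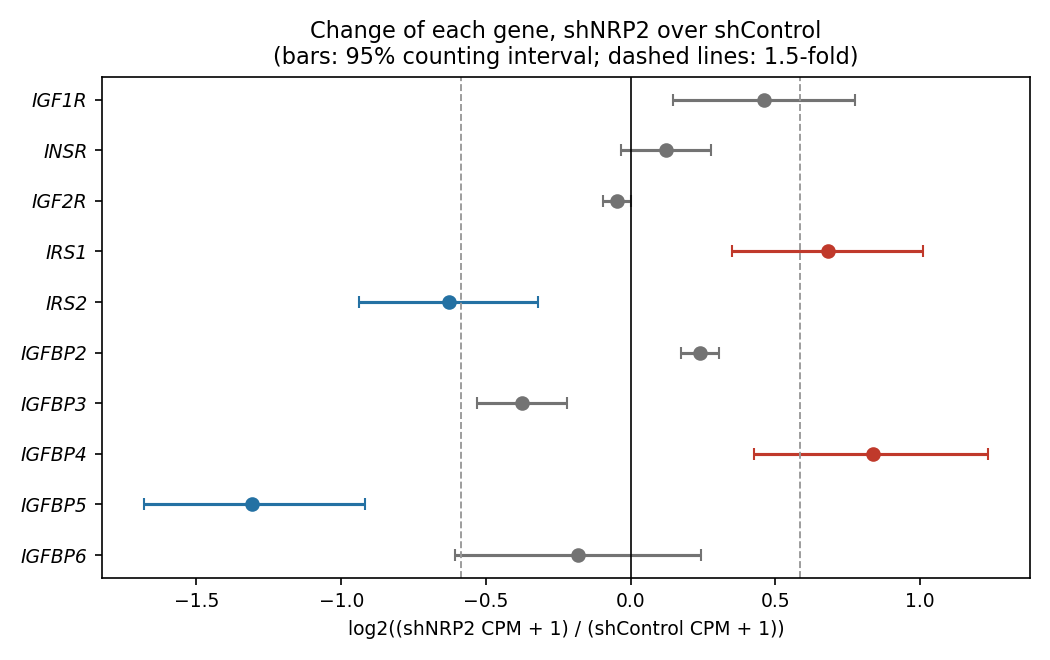
Log2 change of each gene, shNRP2 over shControl, on the log2(CPM + 1) scale, with 95% counting intervals as bars and 1.5-fold as dashed lines. IRS1 (0.68) and IGFBP4 (0.84) pass the upper line and IRS2 (-0.63) and IGFBP5 (-1.31) the lower one, while IGF2R at -0.05 and INSR at 0.12 lie near 0.

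The binding proteins as a sum were nearly level, while their make-up differed. The 5 genes summed to 239 CPM in shNRP2 cells and 219 CPM in shControl cells, a ratio of 1.09 (1.05 to 1.14). IGFBP2, a binding protein with a preference for IGF2 and an RGD motif that binds integrins, gave most of that signal. It was at 204 CPM in shNRP2 cells (4328 reads) and 173 CPM in shControl cells (3549 reads), a ratio of 1.18 (1.13 to 1.24). Per kb of transcript it made up 89.9% of the sum of the 5 in shNRP2 cells and 86.0% in shControl cells. IGFBP3, the main IGF carrier of serum, was second, at 27.4 CPM in shNRP2 cells (581 reads) and 35.8 CPM in shControl cells (736 reads). Its ratio of 0.765 (0.685 to 0.854) and log2 change of -0.37 did not reach 1.5-fold, and it made up 7.68% of the sum per kb in shNRP2 cells and 11.3% in shControl cells. The IGFBP3 to IGFBP2 ratio, a pair not planned beforehand, was in shNRP2 cells 0.647 times that in shControl cells (0.574 to 0.729).

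IGFBP4 and IGFBP5 held few reads and showed the largest differences in each direction. IGFBP4, which withholds IGFs from their receptor until the protease PAPPA cleaves it, was at 3.91 CPM in shNRP2 cells (83 reads) and 1.75 CPM in shControl cells (36 reads). It was 2.23-fold higher (1.49 to 3.40), a log2 change of 0.84, and 337 of the compared genes, itself among them, were at least as high. IGFBP5, a binding protein that attaches to extracellular matrix, was at 1.75 CPM in shNRP2 cells (37 reads) and 5.79 CPM in shControl cells (119 reads). It was 3.32-fold lower, with a ratio of 0.301 (0.202 to 0.439) and a log2 change of -1.31, and 22 of the 13316 compared genes, itself among them, were at least as low. The IGFBP5 to IGFBP4 ratio, a pair chosen after the values were seen, was 0.446 in CPM in shNRP2 cells and 3.31 in shControl cells. The ratio in shNRP2 cells was thus 0.136 times that in shControl cells (0.0759 to 0.239). IGFBP6, which binds IGF2 far more tightly than IGF1, was at 1.98 CPM in shNRP2 cells (42 reads) and 2.39 CPM in shControl cells (49 reads). A difference in IGFBP6 was not detectable at this depth, with a ratio of 0.830 (0.537 to 1.28).

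IGFBP2 and IGFBP5 are adjacent protein-coding genes in the RefSeq annotation and did not change alike. IGFBP2 had a ratio of 1.18 and IGFBP5 one of 0.301. The IGFBP5 to IGFBP2 ratio, a pair not planned beforehand, was in shNRP2 cells 0.255 times that in shControl cells (0.171 to 0.373). IGFBP3 likewise adjoins IGFBP1, which had 8 reads in the shNRP2 library and 6 in the shControl library. An unlisted gene antisense to an exon is annotated at IGFBP5 too, with the same limit on strand as for IRS2. IGF1R has 2 such antisense genes, and AIRN, antisense within IGF2R, had 0 reads in the shNRP2 library and 2 in the shControl library.

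**Figure D3:**
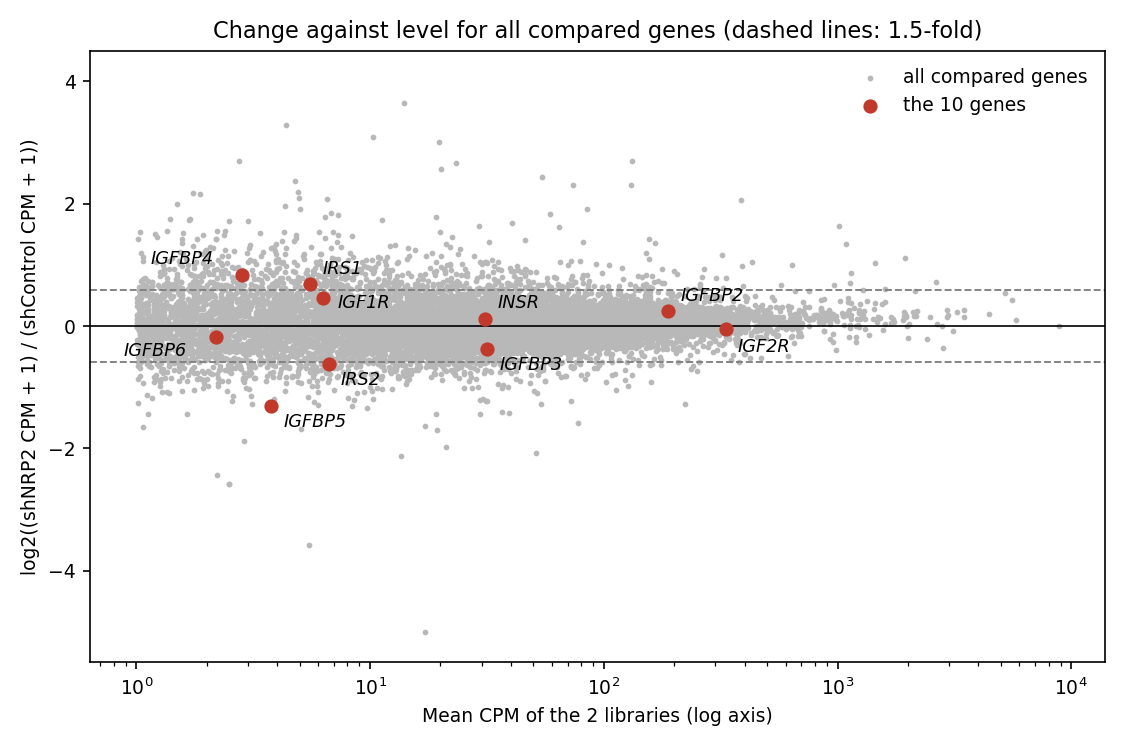
Log2 change on the log2(CPM + 1) scale against the mean CPM of both libraries on a log axis, for the 13316 compared genes in grey and the 10 genes in red, with 1.5-fold as dashed lines. The 4 members past a line all have a mean between 1 and 10 CPM, where the grey cloud is widest, and IGFBP5 at -1.31 lies below most of it.

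Set side by side per kb of transcript, the levels spanned more than 100-fold within each library. In shNRP2 cells the order was IGFBP2 (142 CPM per kb), IGF2R (23.2), IGFBP3 (12.1), INSR (6.85), IGFBP4 (1.78), IGFBP6 (1.69), IRS1 (0.729), IGF1R (0.627), IRS2 (0.614) and IGFBP5 (0.281). In shControl cells the first 4 places were the same, at 120, 24.0, 15.8 and 6.28 CPM per kb. IGFBP6 (2.04), IRS2 (1.02), IGFBP5 (0.932), IGFBP4 (0.797), IGF1R (0.433) and IRS1 (0.416) followed there. Neighbours whose counting intervals overlapped were IGFBP4 with IGFBP6, IRS1 with IGF1R and IGF1R with IRS2 in shNRP2 cells. In shControl cells they were IRS2 with IGFBP5, IGFBP5 with IGFBP4, and IGF1R with IRS1. IGFBP5 stood in place 10 in shNRP2 cells and in place 7 in shControl cells, and IRS1 in place 7 in shNRP2 cells and in place 10 in shControl cells. These places depend on the length used. Per kb of coding sequence IGFBP5 was at 2.14 CPM in shNRP2 cells, above IRS1 (1.90), IGF1R (1.81) and IRS2 (1.25). On that scale it was at 7.10 CPM in shControl cells, beside 7.15 for INSR.

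Of 63 other genes of the pathway, in 9 lists, 51 had a mean of at least 1 CPM, and 4 of these were higher and 3 lower in shNRP2 cells. The remaining 44 did not reach 1.5-fold. The 7 genes past the threshold are read beside the 9.35% of all compared genes that were, and the median log2 change was -0.06, beside 0.03 over all compared genes. The 7 were STC1, SOCS2, FOXO1 and IGF2BP2 on the higher side and IGF1, PIK3R3 and IGFBPL1 on the lower side. All but STC1 and PIK3R3 had a mean of 1 to 10 CPM, where 21.2% of compared genes were past 1.5-fold.

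Among ligands, IGF1 was lower and the others were scarce. IGF1 was at 1.93 CPM in shNRP2 cells (41 reads) and 4.14 CPM in shControl cells (85 reads), 2.14-fold lower (1.46 to 3.19) with a log2 change of -0.81. IGF2 had 12 reads in the shNRP2 library and 10 in the shControl library. INS and the orphan receptor INSRR had 0 reads in both, and a limit of 3 reads allows up to 0.141 CPM in shNRP2 cells and 0.146 CPM in shControl cells. IGFBPL1, a protein with an IGFBP-like domain, was at 2.22 CPM in shNRP2 cells and 3.85 CPM in shControl cells, 1.74-fold lower (1.19 to 2.55).

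PAPPA, one of the proteases that release bound IGF, cleaves IGFBP4, and the stanniocalcins inhibit PAPPA. STC1, a stanniocalcin, was at 44.8 CPM in shNRP2 cells (950 reads) and 13.7 CPM in shControl cells (281 reads), 3.28-fold higher (2.86 to 3.75). Its log2 change of 1.64 on the log2(CPM + 1) scale was the largest among the 51 compared; by plain ratio SOCS2, a low gene described below, was larger. Its paralog STC2, the gene of the highest mean in this list, was at 118 CPM in shNRP2 cells and 104 CPM in shControl cells and did not reach 1.5-fold. PAPPA lay under the mean of 1 CPM, with 8 reads in the shNRP2 library and 21 in the shControl library. FURIN, a protease that cuts the receptor precursors, was at 37.8 CPM in shNRP2 cells and 50.6 CPM in shControl cells, with a log2 change of -0.41.

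At the receptor, 1 gene of 13 compared passed 1.5-fold, beside 9.35% of all compared genes. This was SOCS2, an inhibitor of growth hormone receptor signalling. It was at 3.02 CPM in shNRP2 cells (64 reads) and 0.779 CPM in shControl cells (16 reads), 3.87-fold higher (2.21 to 7.18). GRB10, an adaptor that binds and restrains both kinase receptors, had the highest mean of the list, at 854 CPM in shNRP2 cells and 1122 CPM in shControl cells, with a log2 change of -0.39. Of 13 compared genes of the PI 3-kinase and AKT arm, PIK3R3, a regulatory subunit of PI 3-kinase, was lower, at 124 CPM in shNRP2 cells and 192 CPM in shControl cells, 1.55-fold (1.48 to 1.63). AKT1, the gene of the highest mean there, was at 297 CPM in shNRP2 cells and 289 CPM in shControl cells.

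None of the 10 TOR arm genes passed 1.5-fold, where 9.35% of all compared genes did, so the count is near that share. EIF4EBP1, a translation repressor that TOR inactivates, was at 144 CPM in shNRP2 cells and 147 CPM in shControl cells. FOXO1, a transcription factor that AKT keeps out of the nucleus, was at 5.71 CPM in shNRP2 cells (121 reads) and 2.19 CPM in shControl cells (45 reads), 2.60-fold higher (1.84 to 3.75). Its relative FOXO3 had a log2 change of -0.49, at 106 CPM in shNRP2 cells and 149 CPM in shControl cells, and GSK3B, the gene of the highest mean in that list, was at 194 CPM in shNRP2 cells and 176 CPM in shControl cells. Of the proteins that bind IGF2 mRNA, IGF2BP2 was at 2.31 CPM in shNRP2 cells (49 reads) and 1.07 CPM in shControl cells (22 reads), 2.16-fold higher (1.28 to 3.75). IGF2BP3 was at 45.4 CPM in shNRP2 cells and 32.7 CPM in shControl cells and did not reach 1.5-fold.

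**Figure D4:**
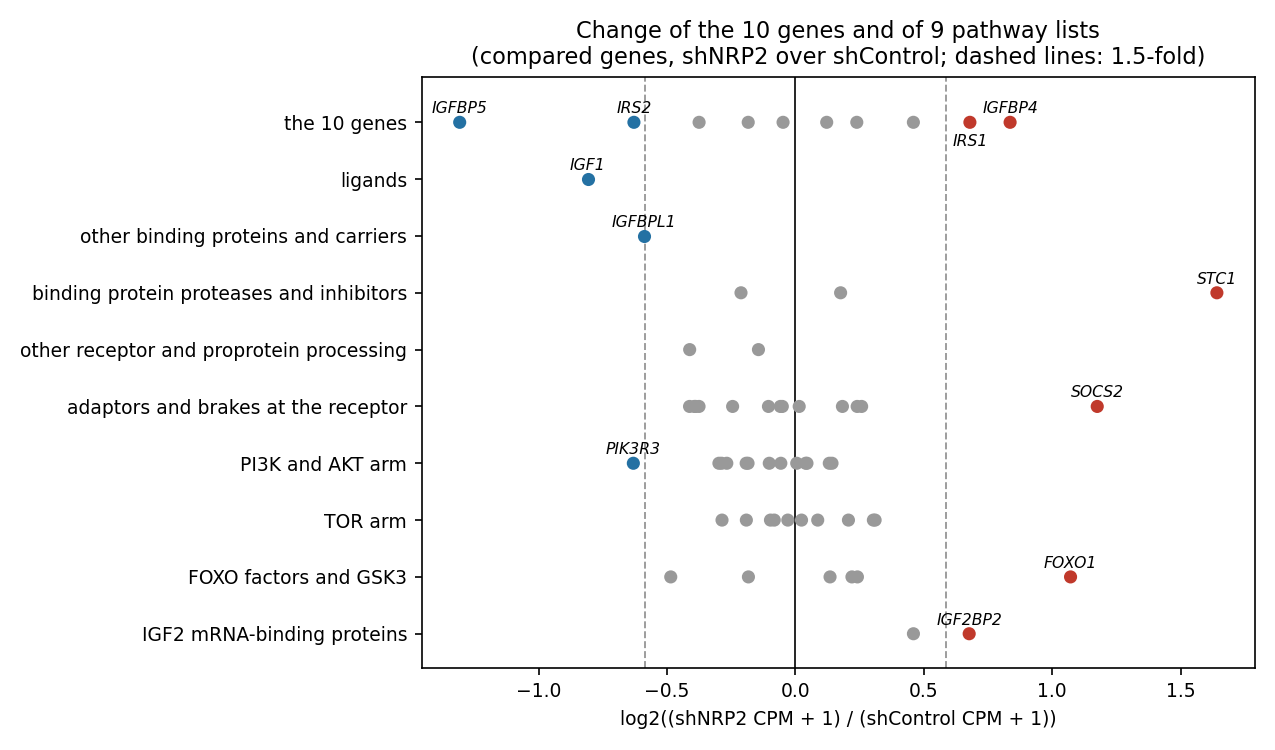
Log2 change on the log2(CPM + 1) scale of the 10 genes (top) and of the 51 compared genes of 9 pathway lists, shNRP2 over shControl, 1 dot a gene, with 1.5-fold as dashed lines and genes past it named. STC1 (1.64), SOCS2 (1.18), FOXO1 (1.07) and IGF2BP2 (0.68) lie above the upper line. IGF1 (-0.81), PIK3R3 (-0.63) and IGFBPL1 (-0.59) lie below the lower one. The TOR arm genes lie between the lines, and 9.35% of all compared genes lie past one.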

How the data were processed

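RNA sequencing libraries of shNRP2 and shControl cells, 1 each, were analysed. The authors deposited 1 signal value per gene symbol, TMM-scaled counts for each 1000000 of library size, as the table labels say. The submitters' processing notes name bcl2fastq (version 2.17), Bowtie2 (2.1.0), RSEM (1.2.15), edgeR and hg19; no role, annotation, filter or strand setting is stated there. The values sum to more than 1000000 in each library and were used as deposited. All values (100%) were whole multiples of 1 read within 0.01 read. Date-like symbols (28, holding 0.184% of reads in the shNRP2 and 0.181% in the shControl library) were left out.

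The pseudocount was 1 CPM, the minimum mean 1 CPM and the threshold 1.5-fold. An exact conditional binomial test on the reads with Benjamini-Hochberg adjustment, added after seeing the data, called 6954 of 13316 genes, or 52.2%, and 7 of the 10; it compares these libraries, not the conditions. Lengths and overlaps came from GENCODE 29 and promoter windows from RefSeq, both on GRCh38, a build other than that of the files; no file coordinate was used. The longest principal transcript with a consensus coding sequence gave the length. Calculations used Python 3.11.15 and scipy 1.17.1 and were tested on simulated data.

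All 10 genes were named, and of each list every gene past the threshold and the one of the highest mean. Others named are IGF2, INS, INSRR, IGFBP1, PAPPA, FOXO3, AIRN, KLK2, KLK3 and TMPRSS2, chosen after their values were seen. The markers VWF, CD68, PTPRC, CD3E and LYZ were also named after their values were seen. A gene of these lists is not reported here. No gene was named for likeness of pattern, since 2 libraries allow none to be measured. The genes and lists were chosen with earlier results of these data known. Alternatives were other pseudocounts, filters, scalings, thresholds and lengths.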

Additional observations from a re-analysis of the deposited data

How the results depend on the processing

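No direction among the 4 genes past 1.5-fold reversed under the other pseudocounts and scalings. A pseudocount cannot reverse a direction. The largest shift of the median log2 change by a scaling was -0.08, with equal library totals, which is small beside these 4 changes. The lack of a reversal is therefore no test of the directions. With a pseudocount of 5 the log2 change was 0.40 for IGFBP4 and -0.68 for IGFBP5, and 0 members were higher and 1 lower. With equal library totals IGF2R was at -0.13 and IGFBP2 at 0.16, and under quantile normalization at -0.11 and 0.17. Keeping genes with a mean of at least 5 left 1 member higher and 1 lower, and a 2-fold threshold on the log2(CPM + 1) scale 0 and 1. By counting intervals, or by the exact binomial test, 4 members were higher and 3 lower; by intervals 56.8% of all compared genes differed.

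Over all compared genes, 769 were higher and 476 lower. With equal library totals more were lower than higher, at 606 higher and 671 lower. The counts were 329 and 159 with a pseudocount of 5, 465 and 310 at a mean of at least 5, 194 and 70 at 2-fold, 4360 and 3199 by intervals and 4028 and 2926 by the binomial test. Of the other pathway genes, 1 was higher and 1 lower with a pseudocount of 5 and likewise at a mean of at least 5. On the log2(CPM + 1) scale 0 of them were lower at 2-fold, though IGF1 was 2.14-fold lower by plain ratio. By intervals 16 and 21 differed, and by the binomial test 15 and 17. Of 180 alternatives for single lists, 143 stayed within 1.5 times. That number includes every count of 0 that stayed at 0, so it is no measure of how steady the lists were.

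Without a length correction the IGF1R to INSR ratio was 0.229 in shNRP2 cells and 0.172 in shControl cells, against 0.0915 in shNRP2 cells and 0.0690 in shControl cells per kb of transcript. IGFBP2 was 85.3% of the binding protein reads in shNRP2 cells and 79.1% in shControl cells. Per kb of transcript these were 89.9% in shNRP2 cells and 86.0% in shControl cells, and per kb of coding sequence 83.5% in shNRP2 cells and 76.7% in shControl cells. No paired analysis was possible because each group holds 1 library, and none could be left out. IGFBP4, IGFBP5 and IGFBP6 rest on 36 to 119 reads a library.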

Other observations

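IGF2R also serves as a receptor for lysosomal enzymes tagged with mannose 6-phosphate, and 7 other genes of that tagging and sorting route were looked at, a list chosen after the values were seen. None of the 7 passed 1.5-fold, beside 9.35% of all compared genes, and their median log2 change was -0.14, beside 0.03 over all compared genes. M6PR, the smaller mannose 6-phosphate receptor, was at 181 CPM in shNRP2 cells and 201 CPM in shControl cells. GNPTAB, which encodes the catalytic subunits of the enzyme that makes the tag, was at 82.9 CPM in shNRP2 cells and 99.2 CPM in shControl cells, and GNPTG, its other subunit, at 27.7 CPM in shNRP2 cells and 22.1 CPM in shControl cells. The sorting adaptors GGA1 and GGA3 were at 69.0 and 40.2 CPM in shNRP2 cells and at 75.9 and 47.4 CPM in shControl cells, and GGA2 at 130 CPM in shNRP2 cells and 112 CPM in shControl cells.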
